A study of Rattus norvegicus with 2 samples.

Results

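The expression of 10 genes of leukocyte adhesion and of the leukotriene pathway was compared between female and male spontaneously hypertensive rats (SHR) in the NTS, the nucleus of the solitary tract, a dorsal medullary centre that receives baroreceptor and visceral input. The genes were F11r, Icam1, Vcam1, Sele, Selp, Alox5, Alox5ap, Ltb4r, Ltc4s and Ccl5, chosen for their link to vascular inflammation in this nucleus in hypertension and found on the array through their transcript accessions. They are 10 of 16575 named genes and were read by 12 probes on 14 spots. The female group was 1 pool of NTS RNA from 5 SHR females and the male group 1 pool from 5 SHR males, all 9 weeks old, untreated as far as the labels say, with 100 ng taken per rat. Each pool was hybridised to 1 Agilent array labelled with Cy3, so there was 1 array per sex, and no normotensive strain was analysed here. Pooling leaves no measure of the variation between rats, and no test was possible. Every difference below compares 2 pools.

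Entry of leukocytes into tissue begins with selectins, which let cells roll along activated endothelium, and continues with ICAM-1 and VCAM-1, which hold them through integrins. JAM-A, the product of F11r, lies in the tight junctions between endothelial cells. 5-Lipoxygenase works with its helper protein FLAP to turn arachidonic acid into leukotriene A4, which is made into leukotriene B4, a chemoattractant, or into the cysteinyl leukotrienes, which make vessels leak. In the NTS of hypertensive rats, JAM-A and leukotriene B4 have been linked to raised blood pressure.

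The promoters of 7 of the 10 genes were in a RefSeq table of build GRCr8. Those of Vcam1, F11r and Alox5 are shown because Vcam1 had the largest difference among the 8 measured genes in the main setting, scaled to the 75th percentile of each array, the probes of F11r went in opposite directions, and Alox5 starts leukotriene synthesis. Each line gives the 250 bases before the annotated start, 5′ to 3′ on the gene's strand. Vcam1 lies on the minus strand (chr2:206742784-206743033), F11r on the plus strand (chr13:86405979-86406228) and Alox5 on the minus strand (chr4:151251127-151251376). Capitals mark matches, on either strand, to the NF-kB consensus or TATAAA in Vcam1, to GGGCGG in F11r, and to the NF-kB consensus or GGGCGG in Alox5.
Vcam1: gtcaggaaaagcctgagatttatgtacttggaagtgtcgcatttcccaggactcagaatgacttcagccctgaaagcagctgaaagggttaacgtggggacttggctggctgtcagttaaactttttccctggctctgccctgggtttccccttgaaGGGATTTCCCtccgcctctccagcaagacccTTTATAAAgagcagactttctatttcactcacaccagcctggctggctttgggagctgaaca
F11r: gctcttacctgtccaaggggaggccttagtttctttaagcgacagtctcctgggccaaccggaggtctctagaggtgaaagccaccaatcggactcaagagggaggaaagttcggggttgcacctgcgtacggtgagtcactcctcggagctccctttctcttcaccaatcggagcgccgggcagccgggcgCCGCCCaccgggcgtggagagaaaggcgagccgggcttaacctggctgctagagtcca
Alox5: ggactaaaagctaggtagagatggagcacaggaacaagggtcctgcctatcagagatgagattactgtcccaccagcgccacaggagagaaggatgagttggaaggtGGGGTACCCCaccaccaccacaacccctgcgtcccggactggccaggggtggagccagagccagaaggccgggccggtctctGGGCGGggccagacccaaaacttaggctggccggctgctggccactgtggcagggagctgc
In Vcam1 the NF-kB match began 93 bases before the start, and 2 overlapping TATAAA matches, 1 on each strand, began 62 and 60 bases before it. In Alox5 the NF-kB match began 143 bases and the GGGCGG match 61 bases before the start, and in F11r the GGGCGG match began 58 bases before it. The NF-kB consensus was found in 2 of the 7 promoters, Vcam1 and Alox5, and in 3.54% of 33469 RefSeq promoters over the same window. TATAAA was found in 2 of 7, Icam1 and Vcam1, against 12.9% of all promoters, and GGGCGG in 3 of 7, F11r, Icam1 and Alox5, against 30.5%. The search took exact matches to each pattern only, so sites that depart from the NF-kB consensus were not counted. A match describes letters in the reference genome and says nothing about binding in these rats.

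None of the genes that could be measured differed by 1.5-fold between the sexes. Of the 10 genes, 8 were well above background on both arrays, and 0 of these 8 were past 1.5-fold or past 2-fold. Over all 13424 measured genes, 2.29% were past 1.5-fold, with 1.5% higher and 0.797% lower on the female array, and 0.551% were past 2-fold, so a count of 0 among 8 is near that background. The 8 differences ran from -0.16 to 0.04 on the log2 scale, female minus male, with a median of -0.10 against 0.02 over all measured genes. The largest in the main setting was a 1.12-fold difference in Vcam1, and 75.4% of all measured genes lay within that size. Which of the 8 differed most depended on the setting: it was Sele after quantile normalization (-0.29), Alox5 with cyclic loess (-0.20), F11r by its brightest probe (-0.18), and Icam1 with spike-in centring (0.12), with normexp (0.15) and without background correction (0.17). Signals are scaled so that the 75th percentile stands at 100 on either array.

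**Figure D1:**
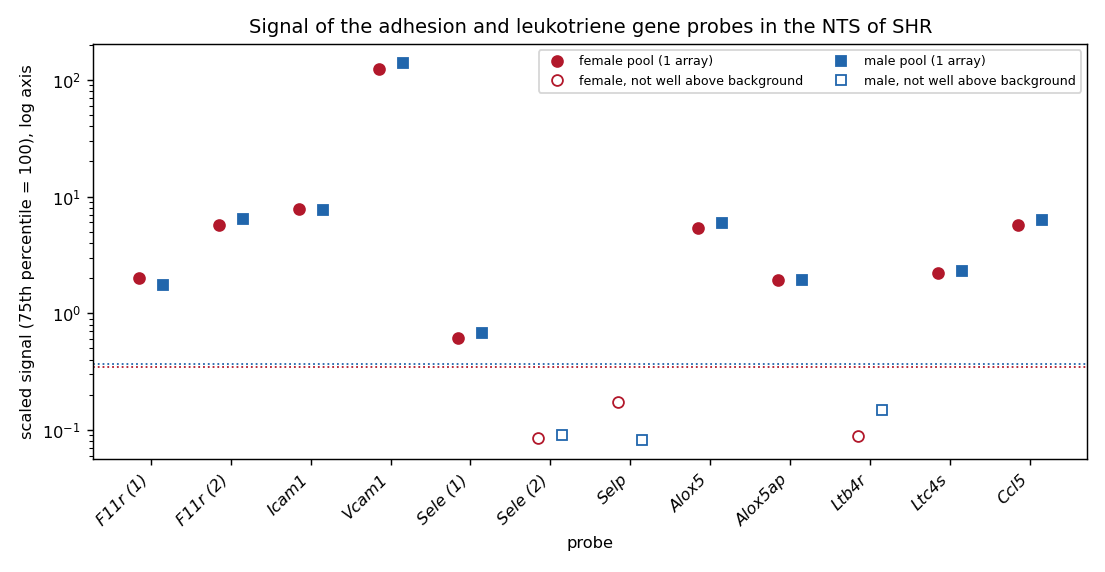
Scaled signal (log axis, 75th percentile of the array at 100) of the 12 probes on the female array (circles, left of each pair) and the male array (squares), with 1 point per probe and array, repeated spots averaged. Open symbols were not well above background, and the dotted lines are the lowest signals well above background, 0.344 for the female array and 0.365 for the male one. The points of each measured pair lie close together; heights are not comparable between probes.

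Vcam1, the endothelial ligand of the integrin VLA-4, gave a signal of 125 in the female pool and 140 in the male pool. The female signal was the lower, by -0.16 on the log2 scale, with a standard error of 0.20 from the error model of the scanner software. That model gives a bright spot an error of 10%. Repeated spots of other probes in the brightest signal quartile scattered within a probe, in their female minus male difference, with an SD of 0.04. The gene differences in that quartile had an SD of 0.13, and 8.28% of its genes had a larger difference than Vcam1. The Vcam1 difference was thus above the scatter of repeated spots and within the error model. So were those of the second F11r probe, Alox5 and, barely, Ccl5, in a signal quartile where repeated spots had an SD of 0.13. The Vcam1 probe has only 1 spot.

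As gene values in the main setting, Icam1 and F11r, the other immunoglobulin-family genes chosen here, differed less than Vcam1. Each F11r probe taken alone differed by more than Vcam1. Icam1, the ligand of leukocyte beta 2 integrins, had 7.80 in the female pool and 7.60 in the male pool, a difference of 0.04 with a standard error of 0.21. F11r was read by 2 probes of the same transcript. The first gave 2.00 in the female pool and 1.73 in the male pool, a difference of 0.21 with a standard error of 0.22. The second gave 5.67 in the female pool and 6.41 in the male pool, a difference of -0.18 with a standard error of 0.21. The probes thus pointed in opposite directions, each by less than its standard error, and their mean was 0.01. Opposite directions were found in 39.0% of the 2490 genes with 2 measured probes. A gap between probes of at least that of F11r, 0.39, was found in 14.0% of the 679 such genes in the same signal quartile.

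The endothelial selectins were at the limit of detection. Sele, the E-selectin gene, had 1 probe just above background, with 0.614 in the female pool and 0.670 in the male pool, a difference of -0.13 with a standard error of 0.30. Its other probe, at 0.085 in the female pool and 0.090 in the male pool, did not rise well above background. Selp, which encodes the P-selectin stored in endothelial cells and platelets, had 0.172 in the female pool and 0.081 in the male pool, not well above background on either, so no fold is given. In the RefSeq table Sele and Selp lie near each other on chromosome 13.

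In the leukotriene pathway the enzymes were measured and the receptor was not. Alox5, the 5-lipoxygenase gene, was read on 2 spots, with 5.33 on each for the female array and 5.86 and 5.97 for the male array. Both female spots lay below both male spots, and the mean difference was -0.15 with a standard error of 0.21. Alox5ap, which encodes FLAP, had 1.92 in the female pool and 1.93 in the male pool, a difference of -0.01. Ltc4s, the synthase of leukotriene C4, had 2.22 in the female pool and 2.32 in the male pool, a difference of -0.07 with a standard error of 0.22. Ltb4r, the high-affinity receptor of leukotriene B4, had 0.088 in the female pool and 0.149 in the male pool, neither of them well above background. These receptor signals show that the transcript was not detectable here, not that it is absent.

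Ccl5, a chemokine that draws T cells and monocytes, was read on 2 spots, with 5.82 and 5.58 on the female array and 6.51 and 5.997 on the male array. The female spots lay below the male spots, and the mean difference was -0.13 with a standard error of 0.21. In the same signal quartile, 42.2% of genes had a larger difference than Ccl5 and 36.7% a larger one than Alox5. None of the 9 measured probes differed by more than its standard error, the widest ratio being 0.929 for the first F11r probe.

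**Figure D2:**
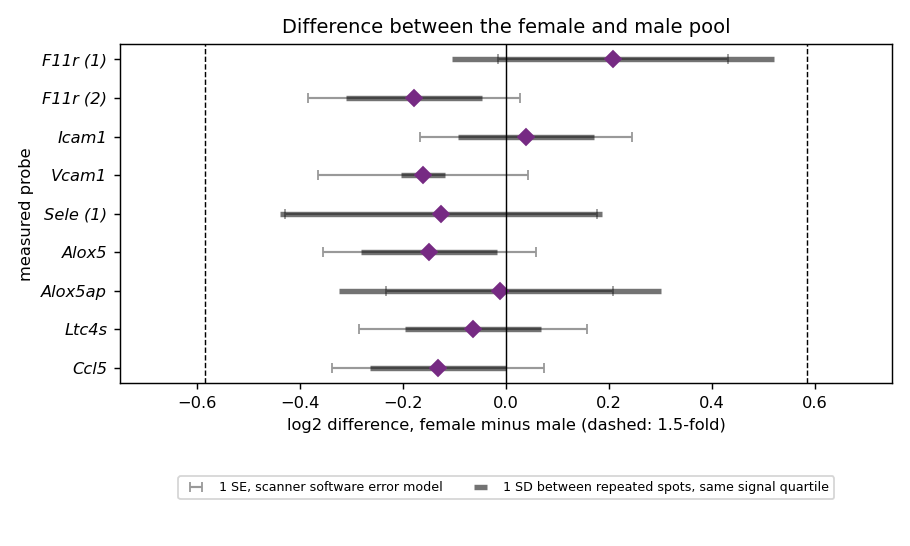
Log2 difference, female minus male, of the 9 measured probes (diamonds). Thin bars are 1 standard error from the scanner software's error model, and thick bars 1 SD between repeated spots of probes in the same quartile of the signal range. All thin bars cross 0 and all diamonds lie inside the dashed lines at 1.5-fold; the thick bars of Vcam1, the second F11r probe, Alox5 and, barely, Ccl5 do not reach 0.

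Of the 8 measured genes, 6 were lower on the female array, as were 44.5% of all measured genes. That count depended on the scaling: it was 4 of 8 when arrays were centred on spike-in controls, which moved all genes up by 0.08, and 8 of 8 after quantile normalization. The share of all genes lower on the female array was not computed in those 2 settings. The median of the 8 genes minus that of all measured genes was -0.11 in the main setting and with spike-in centring. It was -0.14 after quantile normalization and -0.03 without background correction. Vcam1, Alox5 and Ccl5 were lower on the female array in every other setting that gave them a value. Vcam1 ranged from -0.19 to -0.08 over all settings, Alox5 from -0.20 to -0.04 and Ccl5 from -0.18 to -0.05. F11r, Icam1, Sele, Alox5ap and Ltc4s changed sign between settings.

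**Figure D3:**
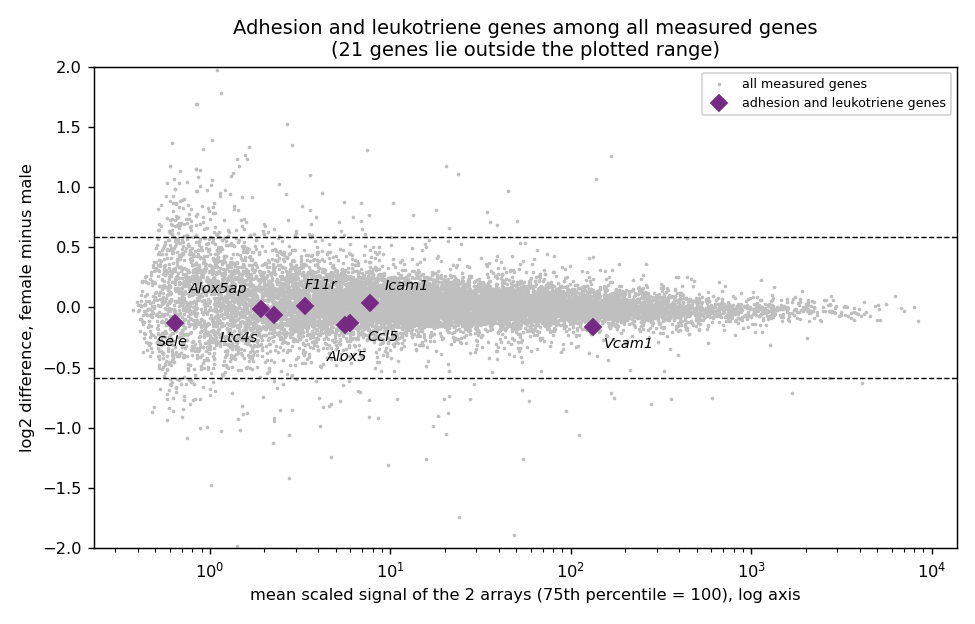
Log2 difference, female minus male, against mean scaled signal (log axis) for all measured genes (grey) and the 8 measured adhesion and leukotriene genes (diamonds). Dashed lines mark 1.5-fold, and 21 genes lie outside the plotted range. The 8 genes sit within the cloud at their signal, with Vcam1 in its lower part.

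Genes around the adhesion members were then listed by role. Of 11 measured leukocyte integrin and selectin-ligand genes, 1 was past 1.5-fold on each side. Itgal, the alpha chain of the ICAM-1 receptor LFA-1, had 0.356 in the female pool and 0.650 in the male pool, a difference of -0.87. Itgb3, an integrin beta chain of platelets and endothelium, had 0.828 in the female pool and 0.474 in the male pool, a difference of 0.80. Both are dim, in a signal quartile where repeated spots had an SD of 0.31 and 8.74% of genes were past 1.5-fold. Itga4, whose product is the alpha chain of the VCAM-1 receptor, was chosen after its values were seen and differed by -0.20, at 2.47 in the female pool and 2.84 in the male pool. The list had a median of -0.01.

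Of 16 other endothelial and junctional adhesion genes, 1 was past 1.5-fold. This was the dim Madcam1, the gut-homing addressin gene, with 0.886 in the female pool and 0.546 in the male pool, a difference of 0.70. The list median was -0.07, and 10 of 16 genes were lower on the female array. Of these 16, Cldn5, Pecam1, Cdh5 and Esam, all lower on the female array, are also in the list of endothelial cell markers. The endothelial cell markers as a whole had a median of -0.12, with 10 of 13 lower on the female array. Their summed scaled signal, in which the brightest probes weigh most, was 445 there, against 476 on the male array. None of these markers was past 1.5-fold. The brightest were Slc2a1, the glucose transporter gene of the blood-brain barrier, at 204 in the female pool and 195 in the male pool, and the VEGF receptor gene Kdr, at 58.0 in the female pool and 73.7 in the male pool. Of the 13 markers, 7 were lower on the female array with spike-in centring, which moved all genes up by 0.08. The endothelial median minus that of all measured genes was -0.14 both there and in the main setting. Beside the endothelial median of -0.12, Vcam1 stood at -0.16, Sele at -0.13, Icam1 at 0.04 and F11r at 0.01. The part of endothelial content in these values was not tested. In pooled tissue, fewer cells of a type and less RNA per cell cannot be told apart.

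Of 11 measured leukotriene enzymes outside the 10 genes, 1 was past 1.5-fold, with a list median of 0.05. Dpep2, a dipeptidase gene whose product converts leukotriene D4, had 0.951 in the female pool and 0.512 in the male pool, a difference of 0.89 in a dim signal. Chosen after their values were seen, Pla2g4a, the phospholipase gene that frees arachidonic acid, differed by 0.13 and Lta4h, the gene of the enzyme that makes leukotriene B4, by 0.08. Lta4h was bright, at 84.2 in the female pool and 79.6 in the male pool. The other leukotriene receptor genes Ltb4r2, Cysltr1 and Cysltr2 were, like Ltb4r, not well above background on either array. Of 13 other lipoxygenase and cyclooxygenase genes, 1 was past 1.5-fold, with a list median of 0.11. This was the dim Ptgis, the prostacyclin synthase gene, with 1.31 in the female pool and 0.845 in the male pool, a difference of 0.63. The bright Ptgds, chosen after its values were seen, was just within 1.5-fold. It had 541 in the female pool and 363 in the male pool, a difference of 0.58. Ptgs2 and Alox12e were above background on the female array only.

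None of 12 measured chemokines and chemokine receptors was past 1.5-fold in the main setting, and their median was -0.10. Their differences ran from -0.43 to 0.56. The highest was that of the dim Ccl2, chosen after its values were seen and just within 1.5-fold. The brightest were the neuronal chemokine gene Cx3cl1, at 528 in the female pool and 502 in the male pool, and its microglial receptor gene Cx3cr1, at 156 in the female pool and 176 in the male pool. Of 18 measured cytokine and NF-kB pathway genes, which act upstream of Icam1, Vcam1 and Sele, 1 was past 1.5-fold, and the median was 0.02. It was the dim decoy receptor gene Il1r2, with 0.743 in the female pool and 0.479 in the male pool, a difference of 0.63. The 6 dim genes past 1.5-fold in these lists, Itgal, Itgb3, Madcam1, Dpep2, Ptgis and Il1r2, were all within 1.5-fold with normexp and without background correction. The NF-kB subunit genes Nfkb1 and Rela and the inhibitor gene Nfkbia, chosen after their values were seen, differed by 0.00, 0.09 and 0.02.

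Markers of the cells that could carry these transcripts were read on the same arrays. Microglia and macrophage markers had a median of -0.02, with Ctss at 327 in the female pool and 330 in the male pool and C1qb at 278 in the female pool and 273 in the male pool. T and B cell markers were dim, with 8 of 12 measured, 1 past 1.5-fold and a median of -0.06. Granulocyte and mast cell markers had a median of -0.25, and the granulocyte genes S100a8, at -0.92, and S100a9, at -0.85, were past 1.5-fold. Of 7 platelet and erythroid markers, 4 were past 1.5-fold and lower on the female array. These were the erythroid genes Slc4a1 at -0.93, Ahsp at -0.92, Hbb at -0.75 and Alas2 at -0.73. The platelet genes Pf4, Gp9 and Gp1bb stood at 0.01, 0.02 and 0.01. Slc4a1 and Alas2 were not past 1.5-fold with normexp, at -0.32 and -0.53, or without background correction, at -0.37 and -0.57. S100a8 and S100a9 stood at -0.42 and -0.43 with normexp, and S100a9 at -0.55 without background correction, also within 1.5-fold. Alox5, Alox5ap and Ccl5 are expressed by leukocytes, and the part of blood cells in their values was not tested.

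The tissue was checked against NTS and dorsal medulla markers, of which 11 were measured. They had a median of -0.07, with Th, the catecholamine synthesis gene, at 532 in the female pool and 602 in the male pool and the synaptic gene Snap25 at 494 in the female pool and 520 in the male pool. All 14 measured choroid plexus markers were past 1.5-fold and higher on the female array, with a median of 2.33. That median was 1.099 with normexp background correction, 1.33 without background correction and 1.62 among brighter probes. The largest were Kcnj13 at 4.56, Sostdc1 at 4.23, Ttr at 3.92 and Prlr at 2.96. Ttr was the largest of these 4, at 3.97, with normexp and without background correction, where Kcnj13, dim on the male array at 0.839, stood at 2.50 and 3.01 and Prlr at 1.13 and 1.56. The choroid plexus carries ICAM-1, VCAM-1 and JAM-A, and the differences of Icam1, Vcam1 and F11r beside this median were 0.04, -0.16 and 0.01. The part of choroid plexus RNA in them was not tested. Meningeal and fibroblast markers had a median of 0.14, with Slc47a1 at 1.17 (0.40 with normexp), Igf2 at 0.80 and Col1a2 at -0.76.

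**Figure D4:**
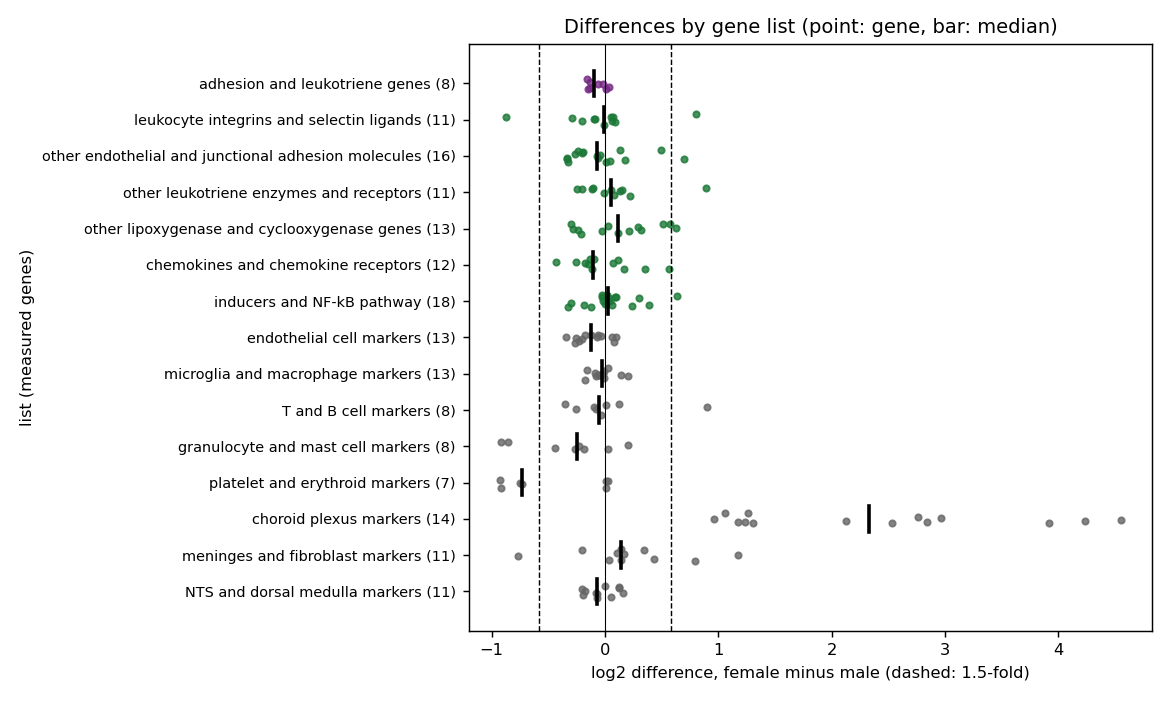
Log2 difference, female minus male, of each measured gene (points) and the median (black bars) in the adhesion and leukotriene genes (top), 6 lists of related genes (green) and 8 marker lists (grey), with the number of measured genes in brackets. The adhesion and leukotriene genes lie inside the dashed 1.5-fold lines, whereas choroid plexus markers lie to the right of them and 4 of 7 platelet and erythroid markers to the left.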

How the data were processed

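Per the labels' protocols, NTS tissue was taken under a dissecting microscope, and total RNA was pooled by sex, amplified, labelled with Cy3 and hybridised. The deposited scanner files give linear spot intensities, background-corrected by Agilent Feature Extraction, version 11.5.1.1 per the file headers and 9.1 per the submitters' processing notes. Both arrays were on 1 slide in 1 scan. The authors' deposited table holds the same intensity divided by 1 constant per array, 23.4 for the female and 22.8 for the male array, with unstated scale and no direction of its own. Its median was 19.6 for the female and 19.4 for the male array, it is not centred by gene, and it lists 11 of the 14 spots used here.

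Processed signals were put on the log2 scale and centred on the 75th percentile of their array, over 58717 spots outside the controls, 82.3% of them well above background for females and 80.1% for males. No spot was saturated. Spots with an outlier flag were left out (363 for females, 284 for males), none of them of the 10 genes, and repeated spots were averaged. A probe was measured when both arrays had it well above background on most of its spots, and a gene was the mean of its measured probes. Accessions were matched without versions to RefSeq genes of GRCr8, naming 21102 of 45598 probes. The array design uses an older assembly, so that table served for names and promoters only. Probe sequences were not used here, and some genes of the lists count in their totals but are not reported here.

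Errors are the software's error model, which is not reduced by averaging spots, and a pooled SD between repeated spots. That SD was taken within probes of at least 2 spots, on the female minus male difference, by quartile of the signal range. A shift shared by all spots of a probe does not enter it. Neither error covers rats, pools or labelling, and the number of arrays limits the precision. Named genes were the 10 genes and, per list, up to 4 genes past 1.5-fold or else the 2 brightest. The 10 genes and all lists were chosen with earlier results of these data known. The gene summary was tested on simulated data. Alternatives were other background corrections (normexp on median spot signals), scalings, filters, probe summaries, folds and the authors' table. Python 3.11.15, numpy 2.4.6, pandas 2.3.3, R 4.3.3 and limma 3.58.1 were used.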

Additional observations from a re-analysis of the deposited data

How the results depend on the processing

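No paired analysis was possible because there is a single array for either sex. Over 12 other settings, 89 values of the 8 measured genes were obtained, 0 of them past 1.5-fold, and 3 moved by more than the SD between repeated spots. Among brighter probes only Vcam1 kept a value. Without a filter on dim probes, 2 of the 10 genes were past 1.5-fold, beside 9.94% of all genes in that setting. These were Selp at 1.08, also past 2-fold, and Ltb4r at -0.76, whose signals were not well above background. The share of all genes past 2-fold was not computed without the filter. The count of all genes past 1.5-fold was 308 in the main setting, 70 with normexp, 88 without background correction, 47 among brighter probes and 1647 without the filter. Its split was 201 higher and 107 lower on the female array, 137 and 157 after quantile normalization, and 281 and 81 with spike-in centring. Of 14 lists, 2 had a median past 1.5-fold, the choroid plexus list and the platelet and erythroid list. With normexp, without background correction or without the filter, 1 list had such a median. Il1r2 turned to -0.030 with normexp. Of the 20 other genes past 1.5-fold that the naming rule chose, 8 stayed so with normexp and 10 without background correction. The planned match through a gene name column was not run, since the files used have accessions only.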
